A study of Mus musculus with 32 samples.

Results

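The skeletal muscle myosin heavy chains were examined in murine mesothelioma tumors, as the 6 genes Myh1, Myh2, Myh4, Myh7, Myh3 and Myh8 of the 39676 genes in the count table. The 6 rows were selected by gene symbol, and the family was chosen because Myh7 was known to be higher in intrapleural (IPL) than in subcutaneous (SC) tumors of both models. The difference between sites is therefore described for these genes without a test. RNA-seq was performed on whole tumors from 32 mice, 8 per combination of cell line (AB1 or AE17) and site (IPL or SC). Both lines are mesothelioma cells of mouse origin, and 500000 AB1 cells were given to BALB/c mice and 1000000 AE17 cells to C57BL/6 mice, either into the pleural space or under the skin of the right flank. The mice were females of 8 to 10 weeks, all were untreated, and the tumors were taken on day 10. Each model is a single cell line in a single strain with its own cell dose, so line, strain and dose cannot be told apart. Per the methods of the study, tumors were harvested with surrounding tissue, and lungs and surrounding tissue were removed later. The sample protocol likewise states that surrounding tissue was harvested with the tumor.

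Myosin heavy chains are the motor proteins of the thick filament, and each type of striated muscle fiber builds its filaments mainly from one of them. Myh7 encodes the slow chain, which is also found in the heart, whereas Myh2, Myh1 and Myh4 encode the fast chains of oxidative, intermediate and glycolytic fibers. Myh3 and Myh8 encode the embryonic and perinatal chains, which are made in developing and regenerating fibers and also persist in some specialised adult muscles.

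In the GENCODE M21 annotation of GRCm38, 5 of the 6 genes lie on the plus strand of chromosome 11 within a single cluster. The order is Myh3 (chr11:67078300-67102291), Myh2 (chr11:67171027-67197517), Myh1 (chr11:67200052-67224575), Myh4 (chr11:67238029-67260446) and Myh8 (chr11:67277124-67308634). Myh7 lies on the minus strand of chromosome 14 (chr14:54970684-54994626), next to Myh6 (chr14:54941921-54966927), the other cardiac heavy chain. The 250 bases before the RefSeq starts of 4 of the genes (GRCm38.p6) are shown because the fast and perinatal genes followed each other closely across tumors and Myh7 less so. The intervals are chr11:67199852-67200101 for Myh1, chr11:67237562-67237811 for Myh4 and chr11:67276874-67277123 for Myh8, all on the plus strand, and chr14:54994627-54994876 on the minus strand for Myh7. Capitals mark the longest run shared by the promoters of Myh1, Myh2, Myh4 and Myh8, which is 14 bases long, and a match to the MEF2 consensus.
Myh1: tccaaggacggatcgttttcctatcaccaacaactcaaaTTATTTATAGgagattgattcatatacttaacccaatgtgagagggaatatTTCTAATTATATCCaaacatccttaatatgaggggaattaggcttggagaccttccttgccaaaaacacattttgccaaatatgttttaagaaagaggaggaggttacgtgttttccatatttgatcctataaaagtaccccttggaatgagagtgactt
Myh4: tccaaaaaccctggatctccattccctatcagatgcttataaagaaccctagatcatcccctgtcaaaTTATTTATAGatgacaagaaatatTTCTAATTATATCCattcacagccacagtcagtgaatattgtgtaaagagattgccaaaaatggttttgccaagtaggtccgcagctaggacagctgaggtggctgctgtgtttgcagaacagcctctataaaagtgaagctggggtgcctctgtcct
Myh8: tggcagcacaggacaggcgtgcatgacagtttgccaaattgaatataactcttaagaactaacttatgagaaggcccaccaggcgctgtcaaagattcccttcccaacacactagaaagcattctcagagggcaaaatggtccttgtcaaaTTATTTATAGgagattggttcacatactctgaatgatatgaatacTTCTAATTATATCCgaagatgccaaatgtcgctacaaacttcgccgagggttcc
Myh7: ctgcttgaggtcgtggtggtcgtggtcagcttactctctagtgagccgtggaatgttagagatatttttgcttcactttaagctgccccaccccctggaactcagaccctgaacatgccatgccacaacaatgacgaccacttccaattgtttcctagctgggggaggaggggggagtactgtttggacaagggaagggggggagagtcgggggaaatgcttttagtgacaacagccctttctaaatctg

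The run TTCTAATTATATCC was found at base -160 of Myh1, -125 of Myh2, -158 of Myh4 and -54 of Myh8, counted from the RefSeq start, and in no other of the 32851 mouse promoter windows searched. It was picked as the longest run that these genes share, so its rarity elsewhere is a description. MEF2 is a family of muscle transcription factors, and its consensus was matched on either strand in the windows of Myh1, Myh4 and Myh8 and in 3.19% of all windows. These windows also held 50 bases after the start. No match to either was found in the Myh7 or Myh3 window. Of the 2 Myh7 windows, only that of the start farthest upstream was read for motifs of the gene. The E-box CANNTG, read by the myogenic factors, occurred in the windows of Myh4, Myh7, Myh3 and Myh8 and in 72.3% of all windows. A match of letters does not show that a factor binds there.

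Some tumors held almost no myosin heavy chain transcripts, and the spread within groups was wide. Summed over the 6 genes, counts ranged from 288 to 32806 with a median of 18005.5 in AB1 IPL tumors and from 5 to 4265 with a median of 2226.5 in AB1 SC tumors. In AE17 the sums were 20 to 6039 (median 3685.0) at the IPL site and 12 to 10481 (median 4390.0) at the SC site. In 5 of the 32 tumors the sum was between 5 and 39, and in the other 27 it was at least 141. The low tumors were AB1 SC replicate 5, AE17 IPL replicates 1 and 8, and AE17 SC replicates 1 and 4. Library totals were alike, from 15432258 to 20649645 counts. Levels are given as CPM (read counts relative to library size, with TMM factors from edgeR). The smallest number taken as detectable was 3 counts. Relative to library totals alone, without the TMM factors, 3 counts stood for 0.145 to 0.194 CPM. In these bulk samples, fewer muscle cells and less RNA per cell cannot be told apart.

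AE17 IPL replicate 5 stood apart by its heart genes. The 10 measured heart genes summed to 224 CPM in this tumor and to between 84.6 and 112 CPM in the other 7 AE17 IPL tumors. Myh6 had 2005 counts, the atrial light chain Myl7 had 146 and the natriuretic peptide Nppa had 75, while Myl7 was at 0 in 6 of the 8 AE17 IPL tumors. The same tumor had 1797 counts of the adipocyte gene Adipoq. Where leaving out this tumor moved a fold change of a member by over 1.5 times or changed its call, both values are given. AB1 IPL replicate 2, the tumor of its group with the fewest heavy chain counts (288), stood apart by mesothelial markers, which summed to 262 CPM against 76.6 to 119 CPM in the other 7 AB1 IPL tumors. Upk3b was at 31.4 CPM in it and at most at 0.465 CPM in the others, and its adipocyte genes summed to 99.4 CPM, against 95 CPM in replicate 1 and 1.68 to 19.6 CPM in the other 6. Without it the log2 fold changes of IPL over SC tumors in AB1 were 2.42 to 6.36 over the 6 genes, against 2.21 to 6.15 with it.

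Myh7, the slow chain, was the member with the largest fitted difference between sites in both models. In AB1 IPL tumors it had 11 to 1297 counts, or 0.638 to 64.2 CPM with a median of 13.1 CPM. In AB1 SC tumors it had 1 to 9 counts, or 0.0589 to 0.473 CPM with a median of 0.25 CPM, and 4 of these 8 tumors were at or under 3 counts. All 8 AB1 IPL tumors were above all 8 AB1 SC tumors. The fitted log2 fold change of IPL over SC was 6.15 (SE 1.03), with 5.48 without AB1 IPL replicate 1 and 5.75 between the 8 IPL and 2 SC libraries that shared a sequencing lane. It was 2.96 with a score of 12 general striated muscle genes as a covariate.

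In AE17 tumors the Myh7 groups overlapped. IPL tumors had 1 to 423 counts, or 0.0593 to 25.5 CPM with a median of 3.68 CPM, and SC tumors had 0 to 18 counts, or 0 to 1.1 CPM with a median of 0.474 CPM. The 6 AE17 IPL tumors with appreciable muscle transcripts, replicates 2 to 7, were above every AE17 SC tumor, and replicates 1 and 8 lay within the SC range. The log2 fold change was 3.75 (SE 0.90), 3.00 without AE17 IPL replicate 5, 3.04 between the 3 IPL and 8 SC libraries of a single lane and 3.95 with the striated muscle score as a covariate.

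The fitted fold changes of the fast chains were positive in AB1 and negative in AE17, where each 95% interval included 0. The AE17 intervals were -3.39 to 0.55 for Myh1, -2.21 to 1.56 for Myh2 and -3.06 to 1.2 for Myh4. Myh4, the chain of glycolytic fibers, had 119 to 13789 counts in AB1 IPL tumors (median 307 CPM) and 0 to 990 counts in AB1 SC tumors (median 28.2 CPM). In AE17 it had 2 to 2495 counts in IPL tumors (median 35.9 CPM) and 0 to 4347 counts in SC tumors (median 52.7 CPM). In AB1, 7 of 8 IPL tumors were above every SC tumor, whereas in AE17 no IPL tumor was above the highest SC tumor. The log2 fold change of IPL over SC was 3.67 (SE 0.89) in AB1 and -0.93 (SE 1.09) in AE17, or -1.57 in AE17 without IPL replicate 5.

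Myh1, the chain of intermediate fast fibers, had a median of 208 CPM in AB1 IPL (range 3.19 to 448) and 52.8 CPM in AB1 SC tumors (0 to 93.1). In AE17 the medians were 68.8 CPM in IPL (0.683 to 104) and 131 CPM in SC tumors (0.291 to 315). Its log2 fold changes were 2.21 (SE 0.87) in AB1 and -1.42 (SE 1.00) in AE17. The groups overlapped in both models, and 5 AB1 IPL tumors exceeded every AB1 SC tumor.

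Myh2, the chain of fast oxidative fibers, had medians of 213 CPM (3.19 to 350) in AB1 IPL and 30.7 CPM (0 to 69.9) in AB1 SC tumors. In AE17 the medians lay close together, at 50.1 CPM (0.178 to 82.0) in IPL and 55.9 CPM (0.301 to 123) in SC tumors. The log2 fold changes were 2.54 (SE 0.86) and -0.32 (SE 0.96). As for Myh1, both pairs of groups overlapped, and 5 AB1 IPL tumors were above every AB1 SC tumor.

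Of the developmental chains, Myh8 was above Myh3 per kb of transcript in all 27 tumors with at least 100 counts over the 6 genes, by 1.19 to 10.9 times. Embryonic Myh3 had 6 to 316 counts in AB1 IPL tumors (median 10.3 CPM) and 3 to 45 counts in AB1 SC tumors (median 1.11 CPM). In AE17 it had 1 to 335 counts in IPL tumors (median 6.59 CPM) and 1 to 174 counts in SC tumors (median 5.05 CPM). The groups overlapped in both models, with 6 AB1 IPL tumors and 2 AE17 IPL tumors above the highest SC tumor of their model. The log2 fold changes of IPL over SC were 2.84 (SE 0.63) in AB1 and 0.62 (SE 0.85) in AE17.

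Perinatal Myh8 had 31 to 2730 counts in AB1 IPL tumors (median 81.5 CPM) and 0 to 397 counts in AB1 SC tumors (median 11.2 CPM). In AE17 it had 0 to 474 counts in IPL (median 20.3 CPM) and 0 to 820 counts in SC tumors (median 23 CPM). As with Myh3, 6 AB1 IPL tumors were above every AB1 SC tumor, but no AE17 IPL tumor was above the highest AE17 SC tumor. The log2 fold changes were 2.77 (SE 0.78) and -0.65 (SE 0.96).

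**Figure D1:**
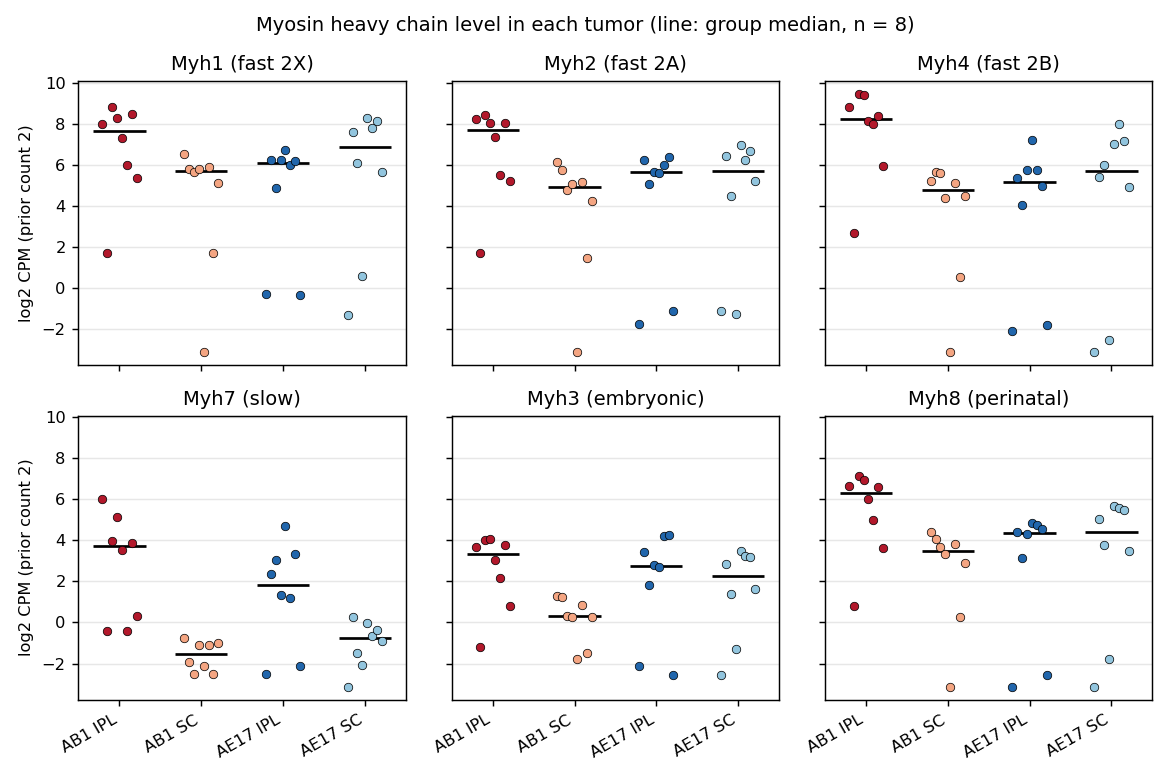
Level of each myosin heavy chain gene in each tumor, as log2 CPM with a prior count of 2 on the vertical axis, for the 4 groups of 8 mice on the horizontal axis. Points are tumors and lines are group medians. The low tumors of each group were low for all the fast and developmental genes, and AB1 IPL and AB1 SC tumors did not overlap for Myh7.

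Between IPL and SC tumors, the median log2 fold change over the 6 genes was 2.80 in AB1 and -0.48 in AE17, with a median of 0 over all genes in both. The family was selected on this contrast, so these values are a description and no test is given for them. All 6 genes passed the low count filter of edgeR in every comparison.

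The models were then compared within each site, a contrast that the choice of genes did not use. In SC tumors, Myh3 was the member that passed the threshold, with a log2 fold change of AB1 over AE17 of -2.07 (SE 0.83) and an adjusted p of 0.0322 by edgeR's quasi-likelihood test over all genes. No AB1 SC tumor was above the median of the AE17 SC tumors for Myh3, nor for Myh1, Myh4, Myh7 or Myh8. This was 1 of 6 members called, against 58.3% of all tested genes. Myh1, Myh4, Myh8 and Myh2 had log2 fold changes from -1.69 (Myh1) to -0.88 (Myh2) with adjusted p from 0.139 to 0.436 by the same edgeR test. Myh7 passed the low count filter through the IPL tumors. With 1 to 9 counts in AB1 SC and 0 to 18 in AE17 SC tumors, a difference between models was not detectable for it at this depth. The Myh3 call was lost with limma-voom (adjusted p = 0.107) and when any 1 of 6 mice was left out, which were AB1 SC replicates 4, 5 and 7 and AE17 SC replicates 5, 6 and 7 (-2.03 to -1.83, edgeR adjusted p from 0.0508 to 0.0663). It was also lost with no filter on low counts (edgeR adjusted p = 0.0636), with the sequencing lane as a covariate (-1.36, edgeR adjusted p = 0.50) and with a block for replicate number.

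In IPL tumors, the glycolytic chain Myh4 and the perinatal chain Myh8 were higher in AB1 than in AE17. Myh4 differed by a log2 fold change of 2.99 (SE 1.06, edgeR adjusted p = 0.0148), and 6 of 8 AB1 IPL tumors were above every AE17 IPL tumor. Myh8 differed by 2.16 (SE 0.90, edgeR adjusted p = 0.0370), again with 6 of 8 AB1 IPL tumors above every AE17 IPL tumor. These were 2 of 6 members, against 63.4% of all tested genes. Myh2 (2.01, adjusted p = 0.0671 by edgeR), Myh1 (1.96, adjusted p = 0.0823) and Myh7 (1.42, adjusted p = 0.109) did not pass the edgeR threshold. Myh3 was nearly level, at 0.17 with an interval from -1.30 to 1.63. Without AE17 IPL replicate 5, the Myh4 difference became 3.62, and the Myh7 difference became 2.17 and passed the threshold (edgeR adjusted p = 0.0177). Without AB1 IPL replicate 1 the Myh7 difference was 0.78 (edgeR adjusted p = 0.380). The Myh8 call was lost with DESeq2 (adjusted p = 0.0677) and without any 1 of AB1 IPL replicates 1, 3, 4 and 7 and AE17 IPL replicates 1, 3 and 8 (1.95 to 2.11, edgeR adjusted p from 0.0518 to 0.0687). A block for replicate number also put Myh8 outside the threshold. Myh2 passed the threshold without AB1 IPL replicate 2 (2.20, edgeR adjusted p = 0.0411). With the striated muscle score as a covariate the difference was 0.66 for Myh4 and -0.35 for Myh8. Both calls were lost with the sequencing lane as a covariate, where the difference was 1.66 for Myh4 (edgeR adjusted p = 0.594) and 0.87 for Myh8 (edgeR adjusted p = 0.760).

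No sequencing lane held both models at the same site, so lane and model cannot be told apart within a site, and the fits with lane as a covariate drew on lanes shared between sites. All 8 AB1 IPL libraries ran on lane 3, and AE17 IPL libraries on lanes 1 and 2. The AB1 SC libraries ran on lanes 2 and 3, and all 8 AE17 SC libraries on lane 1.

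The site difference itself differed between models for Myh4. The interaction was 4.62 on the log2 scale (SE 1.46, edgeR adjusted p = 0.0238), which was 1 of 6 members, against 20.5% of all tested genes. Myh8 (3.44, adjusted p = 0.0518 by edgeR) and Myh1 (3.65, 0.0599) lay just outside the threshold, Myh2 (2.89, 0.128) and Myh3 (2.24, 0.157) further from it. The value for Myh7, which is built from the contrasts on which it was chosen, was 2.42 with an interval from -0.34 to 5.17. It was 1.77 without AB1 IPL replicate 1 and 3.16 without AE17 IPL replicate 5. Myh1 passed the threshold without any 1 of AB1 IPL replicate 2 and AE17 SC replicates 1 and 4 (3.84, edgeR adjusted p from 0.0326 to 0.0406), and Myh8 without these or without AB1 IPL replicate 8, AB1 SC replicate 1 or AE17 IPL replicate 5 (3.60 to 3.68, edgeR adjusted p from 0.0283 to 0.0496). The Myh4 interaction was 5.25 without AE17 IPL replicate 5. The Myh4 call was lost with limma-voom (5.96, adjusted p = 0.0530), with the striated muscle score as a covariate (0.80, adjusted p = 0.441) and with the sequencing lane as a covariate (4.53, edgeR adjusted p = 0.365). A block for replicate number also put it outside the threshold.

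**Figure D2:**
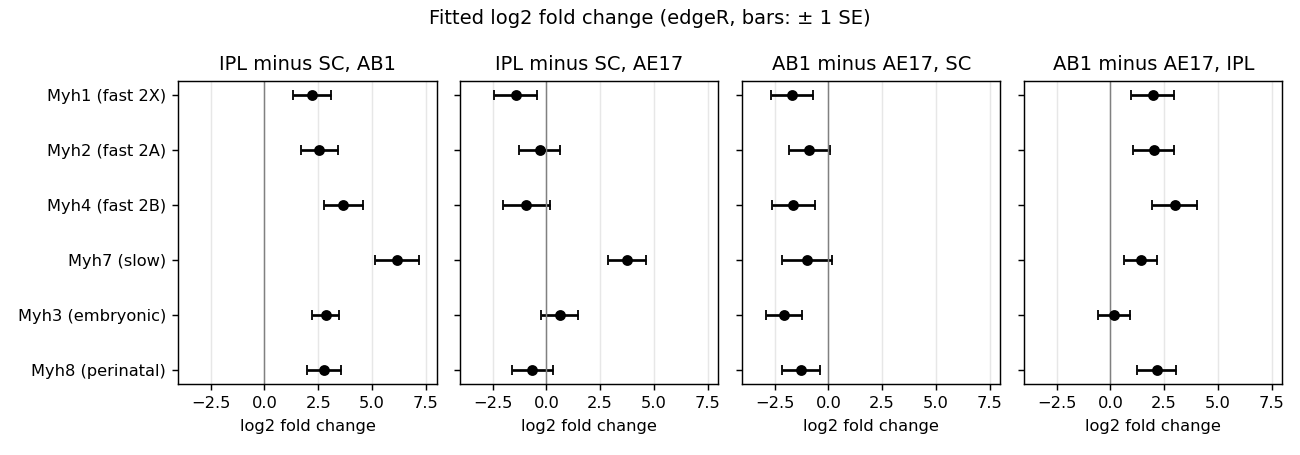
Fitted log2 fold changes of the 6 genes for IPL over SC tumors in each model and for AB1 over AE17 tumors at each site. Points are edgeR estimates and bars are 1 SE to either side. In AE17, Myh7 was at 3.75 while the fast chains were between -1.42 and -0.32.

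Levels were compared between genes after division by the length of the longest coding transcript, which was 6016 to 6230 bases. In AB1 IPL tumors the median CPM per kb was 51.0 for Myh4, 35.1 for Myh2, 34.3 for Myh1, 13.3 for Myh8, 2.11 for Myh7 and 1.71 for Myh3. In AB1 SC tumors Myh1 led at 8.68, followed by Myh2 at 5.05, Myh4 at 4.69, Myh8 at 1.83, Myh3 at 0.184 and Myh7 at 0.0401. The same order as in AB1 SC held for the medians of AE17 IPL tumors, from 11.3 for Myh1 to 0.591 for Myh7, and of AE17 SC tumors, from 21.6 for Myh1 to 0.0761 for Myh7. Neighbours in each order overlapped in their ranges over tumors.

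The order was also read within single tumors. Among the 27 tumors with at least 100 counts over the 6 genes, Myh4 was the highest member per kb in 7 of 8 AB1 IPL tumors, and Myh1 was the highest in 7 of 7 AB1 SC and 5 of 6 AE17 SC tumors. AE17 IPL tumors had no single leader, with Myh2 highest in 3, Myh1 in 2 and Myh4 in 1 of 6. In AE17 SC tumors Myh4 was above Myh2 per kb in 4 of 6 (ratio 0.493 to 3.42), the reverse of the order of the group medians. The ratio of Myh4 to Myh1 per kb had a median of 1.77 (0.943 to 4.03) in AB1 IPL and 0.584 (0.377 to 0.963) in AB1 SC tumors. In AE17 the medians were alike, at 0.647 in IPL and 0.568 in SC tumors.

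The lowest member was Myh7 or Myh3 in these tumors. It was Myh7 in 7 of 7 AB1 SC and 6 of 6 AE17 SC tumors. Among IPL tumors it was Myh7 in 3 of 8 and Myh3 in 5 of 8 in AB1, and Myh7 in 4 of 6 and Myh3 in 2 of 6 in AE17. The ratio of Myh7 to Myh3 had a median of 1.21 in AB1 IPL (0.144 to 4.97) and 0.2 in AB1 SC tumors (0.0509 to 0.343). It was 0.474 in AE17 IPL (0.115 to 3.86) and 0.0851 in AE17 SC tumors (0.0538 to 0.151).

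**Figure D3:**
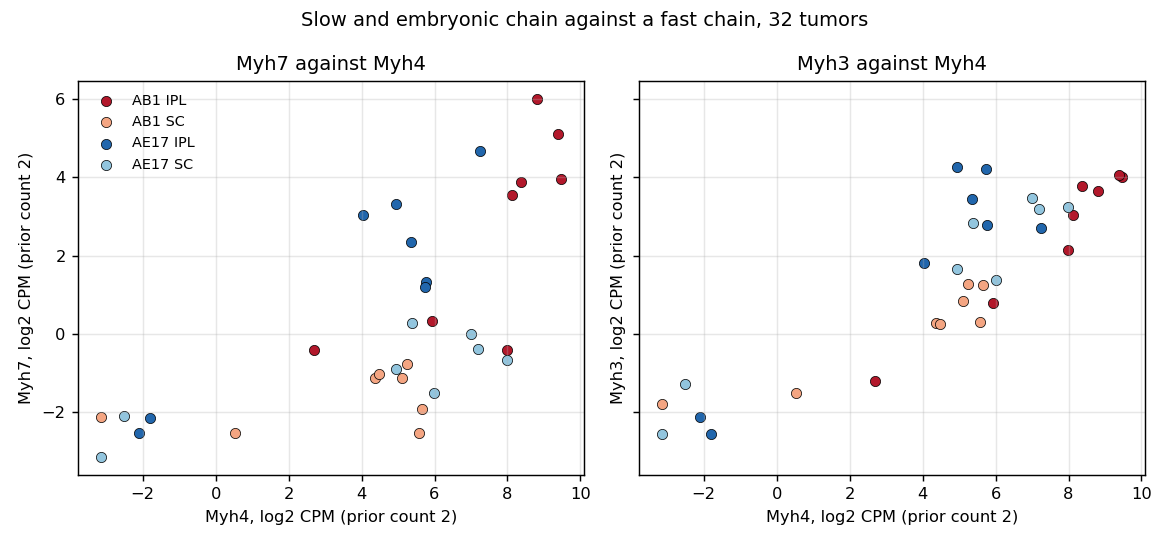
Myh7 (left) and Myh3 (right) against Myh4 in the 32 tumors, all as log2 CPM with a prior count of 2. Points are tumors colored by group. AE17 IPL replicates 2 to 7, with Myh4 within the range of SC tumors, had more Myh7 than any SC tumor. Most AB1 IPL tumors had more Myh4 than any SC tumor, so no SC tumor had a like level. Myh3 followed Myh4 in all groups.

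As shares of the summed counts per kb of all exons, the fast chains made up most of the signal. Over tumors with at least 100 summed counts, the median fast share was 92.2% in AB1 IPL (88.2 to 94.4, n = 8), 93.3% in AB1 SC (88.6 to 94.0, n = 7), 86.0% in AE17 IPL (81.7 to 90.1, n = 6) and 93.6% in AE17 SC tumors (92.4 to 93.9, n = 6). The slow share was 1.18% (0.121 to 4.23) in AB1 IPL and 0.188% (0.0325 to 0.571) in AB1 SC tumors. In AE17 it was 2.53% (0.759 to 6.66) in IPL and 0.108% (0.065 to 0.251) in SC tumors, and these ranges did not overlap. The developmental share was 6.06% (5.50 to 8.50) in AB1 IPL and 6.55% (5.76 to 10.8) in AB1 SC tumors. It was 9.83% (6.37 to 15.9) in AE17 IPL and 6.26% (5.98 to 7.35) in AE17 SC tumors, where Myh3 took 4.63% against 1.81% and Myh8 5.33% against 4.48%. The annotated exons of Myh8 and Myh7 span 11772 and 8616 bases against 6149 and 6230 bases for their longest coding transcripts, so all-exon lengths lower their shares relative to the other genes. From raw counts, without division by length, the median developmental share was 9.64% in AB1 IPL, 10.3% in AB1 SC, 13.2% in AE17 IPL and 9.60% in AE17 SC tumors.

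**Figure D4:**
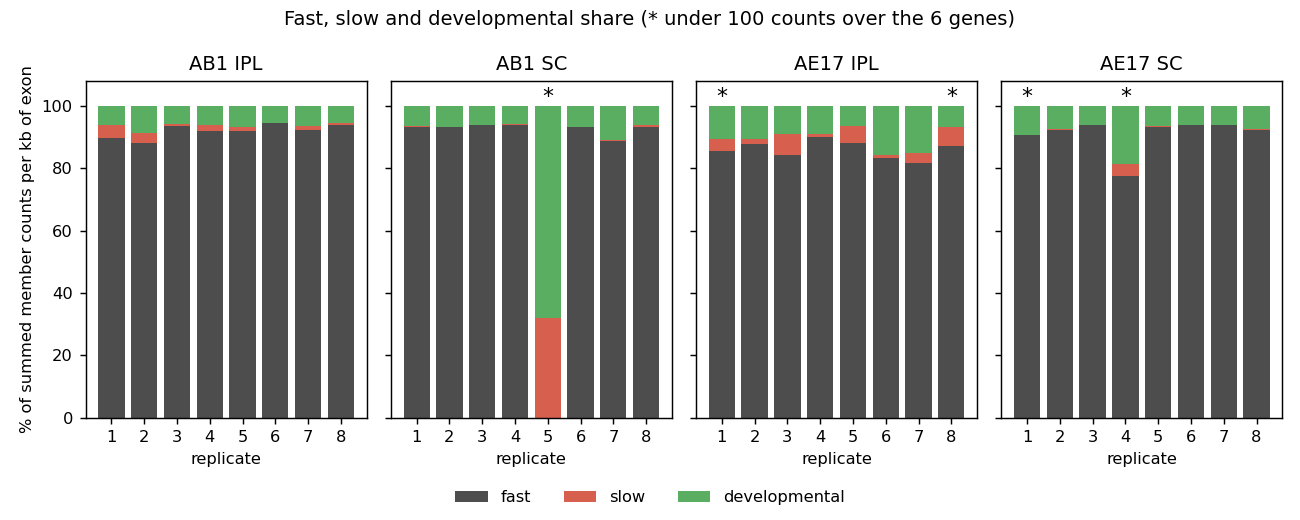
Share of fast (Myh1, Myh2, Myh4), slow (Myh7) and developmental (Myh3, Myh8) chains in each tumor, in percent of summed counts per kb of exon on the vertical axis, with replicates on the horizontal axis. Stars mark the 5 tumors with under 100 summed counts. The fast share was over 80% in all tumors without a star.

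Across the 32 tumors, with group means removed, Myh1, Myh2, Myh4, Myh3 and Myh8 had pairwise r between 0.92 and 0.99, and Myh7 had r between 0.67 and 0.79 with them. These values describe genes measured in the same libraries, over tumors with a broad range of muscle content. For Myh7 they include SC tumors in which it was near the floor. Within groups its r was 0.43 to 0.59 in AB1 SC, 0.75 to 0.86 in AB1 IPL, 0.82 to 0.9 in AE17 IPL and 0.84 to 0.95 in AE17 SC tumors. Among 13982 genes compared, the gene most like Myh7 was Myh6 (r = 0.927), followed by Fabp3 (0.883), which encodes the fatty acid binding protein of heart and slow muscle, and Mapt (0.861), which encodes the microtubule protein tau. Myh4 was closest to Myl1 (0.985), a light chain of fast fibers, Myh8 (0.984) and Mybpc2 (0.984), the fast myosin binding protein. Myh1 was closest to Myh8 (0.988), Myh2 (0.986) and Myh4 (0.976), and Myh2 to Myh8 (0.989), Myh1 (0.986) and Klhl41 (0.986), a sarcomere assembly factor. Myh3 was closest to the fast light chain Mylpf (0.971), Actn3 (0.970) and the extraocular heavy chain Myh13 (0.966), and Myh8 to Myh2 (0.989), Myh1 (0.988) and Myl1 (0.987).

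The heavy chain transcripts share part of their sequence. Of all 50-base stretches, the read length used, 30.5% of those of Myh1, 24.58% of Myh2, 18.9% of Myh4, 12.11% of Myh8, 20.04% of Myh7 and 4.76% of Myh3 also occur in another gene, and how the counting tool, SummerizeOverlaps as the study's methods spell it, was set to treat such reads is not given in the sources used here. For Myh6 the share was 20.16%, all of it found in Myh7. Antisense genes overlap exons of Myh1, Myh2 and Myh7, and a strand setting for counting is not given either, so their reads cannot be told apart from those of the sense genes if strand was not used.

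Myh6 and Myh7, which share 1381 of these 50-base stretches, had counts that ran in parallel in most IPL tumors. Myh6 had 0.468 to 1 times the counts of Myh7 in the 8 AB1 IPL tumors and 0.27 to 0.399 times in AE17 IPL replicates 2, 3, 4, 6 and 7. In AE17 IPL replicate 5 the ratio was 4.74, with 2005 counts of Myh6 and 423 of Myh7. Without this tumor the likeness of Myh6 to Myh7 was 0.975.

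**Figure D5:**
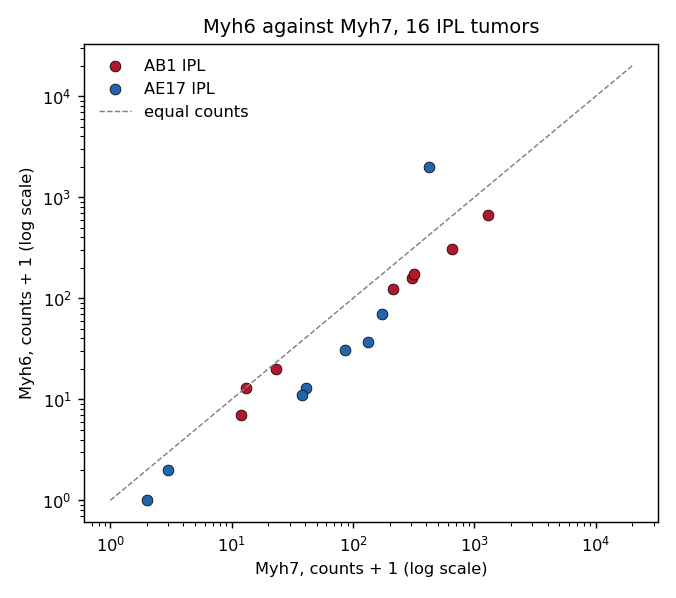
Counts of Myh6 against counts of Myh7 in the 16 IPL tumors, each with 1 added, on log axes. Points are tumors and the dashed line marks equal counts. AE17 IPL replicate 5 was the tumor above the line, with 2005 counts of Myh6.

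Within groups, Myh7 and Myh3 were set against muscle gene lists over the 8 tumors, with exact two-sided permutation tests. Myh7 was too low for this in SC tumors, which left 10 of 16 relations, over which p was adjusted. In AB1 IPL tumors, Myh7 followed 9 other slow fiber genes with r = 0.99 (exact p = 2.48e-05, adjusted 0.000248) and rho = 1.00 (exact p = 4.96e-05), both the smallest values the permutations can give, and r was 0.98 without replicates 2 and 6. Its r with the fast fiber genes was 0.82 (exact p = 0.00548, adjusted 0.0110; rho 0.88, exact p = 0.00724) and 0.78 without replicates 2 and 8. With the heart genes r was 0.83 (exact p = 0.00717, adjusted 0.0119; rho 0.86, exact p = 0.0107) and 0.81 without replicates 6 and 8. The heart list holds Myh6, which was the gene most like Myh7 and shares part of its sequence. The relation of Myh7 to the heart genes without Myh6 was not tested. The heart relation did not hold with a prior count of 0.5 (r = 0.60, exact p = 0.124) or with the median in place of the mean of the list (r = 0.27, exact p = 0.527).

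In AE17 IPL tumors the relation of Myh7 to slow fiber genes (r = 0.87, exact p = 0.0177, adjusted 0.0196; rho 0.55, exact p = 0.171) rested on replicates 1 and 8, and r was -0.02 without them. The same held for the fast fiber genes, with r = 0.90 (exact p = 0.0133, adjusted 0.0166; rho 0.64, exact p = 0.0962) and 0.21 without those tumors. With the heart genes, Myh6 again among them, Myh7 had r = 0.67 (exact p = 0.0347, adjusted 0.0347) and rho = 0.98 (exact p = 0.000397, adjusted 0.00132). Without replicates 5 and 7, r was 0.82 (exact p = 0.0639), which did not pass the threshold. Over the 6 tumors left without replicates 1 and 8, the exact p-values for slow and fast fiber genes were 0.979 and 0.724.

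Myh3 was set against the genes of developing muscle in all 4 groups. The list held 11 genes, among them Myog and Myod1, the transcription factors of muscle differentiation. The r values were 0.96 in AB1 IPL (exact p = 0.000843, adjusted 0.00281; rho 0.81, exact p = 0.0218), 0.83 in AB1 SC (exact p = 0.0105, adjusted 0.0150; rho 0.88, exact p = 0.00724), 0.99 in AE17 IPL (exact p = 7.44e-05, adjusted 0.000372; rho 0.98, exact p = 0.000397) and 0.89 in AE17 SC tumors (exact p = 0.00166, adjusted 0.00415; rho 0.83, exact p = 0.0154). Without the 2 tumors farthest from the median of the list, they were 0.86, 0.95, 0.97 and 0.97. In AB1 SC tumors the relation missed the threshold when replicate 5 or replicate 7 was left out, with r down to 0.75. Myh3 followed the adult fast chain Myh1 about as closely. Their r was 0.99 in AB1 IPL, 0.91 in AB1 SC, 0.96 in AE17 IPL and 0.99 in AE17 SC tumors. The relation of Myh3 was thus not particular to the genes of developing muscle.

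The other muscle genes were counted by list. Of all tested genes, 12.3% were higher in IPL than in SC tumors of AB1 and 2.60% in AE17, while 58.3% differed between models in SC tumors and 63.4% in IPL tumors, and 20.5% had an interaction in either direction. Of 10 tested fast fiber genes, 10 were higher in IPL than in SC tumors of AB1 and none was called in AE17, with median log2 fold changes of 3.44 and -0.67. In IPL tumors 9 of the 10 were higher in AB1 than in AE17, in SC tumors 2 were lower, and 10 had a positive interaction. Slow fiber genes were higher in IPL tumors for 6 of 7 in AB1 (median 2.92) and for 2 of 7 in AE17 (median 1.05), and between models 2 of 8 were higher in AB1 at the IPL site and 2 of 8 lower at the SC site, with no interaction called. Of 12 general striated muscle genes, 10 were higher in IPL tumors of AB1 (median 2.62) and 1 in AE17 (median -0.39). Between models 10 of the 12 were higher in AB1 IPL, 2 were lower in AB1 SC and 7 had a positive interaction. When 1 mouse was left out, the count of slow fiber genes called between sites in AE17 was 0 to 4, and it moved by over 1.5 times in 13 of 16 such fits, in all but those without IPL replicate 5 or SC replicates 1 or 2. Between models the count of slow fiber genes was 1 to 3 at either site, and it was 1 without any 1 of AB1 IPL replicates 1, 3, 4 and 7 and AE17 IPL replicates 1, 3, 4 and 8 at the IPL site, or of AB1 SC replicates 3, 5 and 7 and AE17 SC replicates 2 and 6 at the SC site. For the general striated muscle genes, the SC count was 1 in 14 of 32 such fits (without AB1 IPL replicates 1, 5 or 7, AB1 SC replicates 1, 3, 4, 5, 7 or 8, AE17 IPL replicate 4 or AE17 SC replicates 2, 5, 6 or 7), and the interaction count was 6 to 11, the highest without AE17 SC replicate 1. The count of fast fiber genes called between models in SC tumors was 0 (without AE17 SC replicate 6) to 4 (without AE17 SC replicate 4). The fast and slow fiber calls between sites and between models were lost with the sequencing lane as a covariate in edgeR.

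Of the 11 genes of developing muscle, 6 passed the low count filter in AB1 and 5 in AE17. In all these lists, genes low in SC tumors can pass the filter through the IPL tumors. The counts of tested genes therefore lean towards genes high in IPL tumors. Genes of developing muscle were higher in IPL tumors for 6 of 6 tested in AB1 (median 3.03) and 3 of 5 in AE17 (median 1.49). The AE17 count was 1 without AE17 IPL replicate 7 and 5 without AE17 IPL replicate 8 or AE17 SC replicate 1. Between models, 2 of 9 were higher and 2 lower in AB1 IPL, 2 were lower in AB1 SC, and 1 had a positive interaction. Ncam1 of this list had medians of 74.1 CPM in AE17 IPL and 78.3 CPM in AE17 SC tumors, against 5.33 and 1.52 CPM in AB1. It was at least 51.6 CPM in every AE17 tumor, those with almost no heavy chain counts included. Of 7 genes for myosin chaperones and thick filament assembly, 5 were higher in AB1 IPL than in AB1 SC tumors (median 2.52) and none was called in AE17 (median 0.14). Between models 5 of the 7 were higher and 1 lower in AB1 IPL, none was called in SC tumors, and 4 had a positive interaction. Of the other heavy chain genes, 2 of 4 tested were higher in IPL tumors of AB1 (median 1.27) and none was called in AE17 (median 0.13). Between models 2 of 5 were higher and 2 lower in AB1 IPL, 2 were lower in AB1 SC, and 1 had a positive interaction. Where edgeR called none, unadjusted p under 0.05 were found for 2 of 8 slow fiber genes in the interaction (1 called by DESeq2 and 2 by limma-voom), for 1 of 4 other heavy chains in AE17, and for none of the fast fiber or the chaperone and assembly genes. Leaving out 1 mouse moved the interaction count by over 1.5 times in 7 of 32 fits for the other heavy chains (1 to 3) and in 2 of 32 for developing muscle (1 to 3), and gave 1 call in 3 of 32 for slow fiber genes and in 3 of 16 for the other heavy chains between sites in AE17. Neither DESeq2 nor limma-voom called a gene of the other heavy chain, fast fiber or chaperone and assembly lists in those comparisons. The medians over all genes were between 0 and 0.02, and these lists were chosen with earlier results of these data known.

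Markers of other tissues were measured beside the heavy chains, and their part in the results was not tested. Summed over 10 of 11 listed heart genes, levels were 40.6 to 87.8 CPM in AB1 IPL, 32.4 to 43.3 in AB1 SC, 84.6 to 224 in AE17 IPL and 30.2 to 91.4 CPM in AE17 SC tumors, with 2 or 3 of the genes at a median of 0. In AE17 IPL replicate 5 the largest part of the sum was Myh6, at 121 CPM. In most other tumors the sums came mainly from genes present at both sites. These were the transcription factors Gata4 (group medians of 16.9 to 48.0 CPM) and, in AE17, Tbx20 (36.8 CPM in SC and 53.9 CPM in IPL tumors, against at most 0.0263 CPM in AB1). The group medians of Myl7, Nkx2-5 and Hand2 were at most 0.0585 CPM. Of the tested heart genes, 1 of 4 was higher and 2 lower in IPL tumors of AB1, where 10.7% of all tested genes were lower, and 1 of 5 was higher in AE17, where the count was 0 without IPL replicates 4 or 7 or SC replicates 5 or 7, 2 without IPL replicates 1 or 8 and 3 without SC replicate 1. Smooth muscle genes (3 of 5 listed, desmin among them, which skeletal muscle also makes) summed to 28 to 850 CPM in AB1 IPL, 5.64 to 97.8 in AB1 SC, 6.41 to 192 in AE17 IPL and 5.72 to 79.1 CPM in AE17 SC tumors. Nearly all of this was desmin, with group medians of 43.3 to 492 CPM, against at most 5.7 CPM for Tagln and 0.565 CPM for Cnn1. Of the 2 tested, 1 was higher in IPL tumors of each model, and it need not be the same gene. In AB1 the mean log2 CPM in IPL and SC tumors was 8.33 and 5.0 for desmin and 0.65 and 0.29 for Tagln. In AE17 these means were 5.59 and 4.7 for desmin (SD 2.5 and 1.86) and 2.64 and 1.46 for Tagln (SD 0.5 and 0.56).

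Adipocyte genes (4 of 5 listed) summed to 1.68 to 99.4 CPM in AB1 IPL, 0.121 to 11.2 in AB1 SC, 0.0593 to 300.0 in AE17 IPL (at most 17.3 without replicate 5) and 0 to 22.1 CPM in AE17 SC tumors. Among 3 tested, 1 was higher in IPL tumors of AB1 (2 or 3 in 5 of 16 fits that left out 1 mouse) and none was called in AE17 by edgeR, DESeq2 or limma-voom, with 1 at an unadjusted p under 0.05. Satellite cell genes (3 of 4 listed), which mark muscle stem cells, summed to 0.266 to 6.14 CPM in AB1 IPL and at most 1.27 CPM in the other groups, and none passed the low count filter within a model. Lung epithelium genes (3 of 5 listed) summed to at most 4.44 CPM in any tumor and none was tested. Keratinocyte genes (4 of 5 listed) summed to at most 22.6 CPM, and the single gene tested was not called between sites by edgeR in either model. In AE17 this gene had an unadjusted p under 0.05, was called by limma-voom and not by DESeq2, and was called by edgeR in 3 of 16 fits that left out 1 mouse (IPL replicate 5 or SC replicates 1 or 3). In AB1 neither tool called it, and its unadjusted p was over 0.05.

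Of the mesothelial markers, Pdpn was present throughout, from 74.1 to 226 CPM. Wt1, Upk3b, Krt7 and Krt19 were low or at 0 in most tumors, AB1 IPL replicate 2 apart, with group medians of at most 4.46 CPM, and Upk3b had a median of 0 in both SC groups. Of these 5 genes, 1 of 3 tested was higher in IPL tumors of AB1 and none of 2 was called in AE17 by edgeR, with none at an unadjusted p under 0.05, while DESeq2 called 3 and limma-voom 1 of the 5 genes. Without AE17 IPL replicate 1 or any 1 of the 8 AE17 SC tumors, edgeR called 2 in AE17.

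Some of these markers also differed between models, tested by edgeR over all 32 mice. Chodl, the single satellite cell gene tested, was lower in AB1 SC and higher in AB1 IPL tumors than in AE17 and had a positive interaction, with medians of 1.79 CPM in AB1 IPL, 0 in AB1 SC, 0.292 in AE17 IPL and 0.589 CPM in AE17 SC tumors. Its IPL and interaction calls were lost with the sequencing lane as a covariate, and its IPL call with the striated muscle score. Of 6 tested heart genes, 1 was higher and 2 lower in AB1 at each site, and 1 had a negative interaction (0 to 2 when 1 mouse was left out). Of the mesothelial genes, 1 of 5 was higher and 2 lower in AB1 SC, 2 were lower in AB1 IPL and 1 had a negative interaction. The smooth muscle list had 1 of 2 lower in AB1 SC, and 1 higher and 1 lower in AB1 IPL. Krt10, the keratinocyte gene tested, was lower in AB1 at both sites with a positive interaction. Its IPL call was lost with limma-voom and, like the interaction, with the sequencing lane as a covariate. When 1 mouse was left out, 2 keratinocyte genes were called between models in 25 of 32 fits at each site. No adipocyte gene was called by edgeR or had an unadjusted p under 0.05 in these comparisons, whereas DESeq2 called 2 of them in IPL tumors, and leaving out 1 mouse gave 1 edgeR call in 20 of 32 fits in SC tumors and 3 in IPL tumors without AE17 IPL replicate 5.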

How the data were processed

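Counts of reads on each gene were deposited by the authors for 32 tumors. They mapped 50 bp single-end reads to the mouse genome with HISAT2 (2.0.4 in the submitters' processing notes, which also name bcl2fastq 1.8.4) and counted them without normalization. The build, written as mm11 in the methods, was matched by gene identifier to GENCODE M21 on GRCm38. Groups came from sample titles and lanes from column names. The 6 members and all gene lists were chosen with earlier results of these data known.

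Totals were 15432258 to 20649645 counts. Replicates within a group differed beyond counting noise in all 112 pairs (chi-square per degree of freedom 5.51 to 134.7). The labels call them separate tumors, and p-values measure the spread between these samples. Floors cover counting error only.

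Comparisons used edgeR 4.0.16 in R 4.3.3 (filterByExpr, TMM, robust quasi-likelihood F test, two-sided, Benjamini-Hochberg adjustment over all tested genes, threshold 0.05), within each model for sites and over all 32 tumors for models and the interaction. Levels are TMM-scaled CPM, and log2 CPM used a prior count of 2. A list score is the mean log2 CPM of its genes. Correlations used exact permutation tests (scipy 1.17.1). Likeness covered genes averaging 1 CPM or more. Repeats used DESeq2 1.42.0, limma 3.58.1, other scalings and filters, covariates, a replicate block and leaving out each mouse. Share lengths and the minimum of 100 counts were varied after seeing the data. The fits were tested on simulated data. Promoters came from the RefSeq table for GRCm38.p6. All 6 genes were named, with the 3 genes most like each. AE17 IPL replicate 5, its genes Myl7, Nppa and Adipoq, AB1 IPL replicate 2, and the other list genes were singled out after their values were seen.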

Additional observations from a re-analysis of the deposited data

Results flagged for a closer look

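The spread of the fast, slow and developmental shares was widest in tumors with few counts. By Dixon's test at the 95% level, 7 of 40 groups of 8 tumors had a value far from the others. Chance flags about 1 in 20 independent groups, but the 3 shares of a tumor sum to 100%, and the 7 values came from 3 tumors, so the count is not set against it. AB1 SC replicate 5, with 5 counts over the 6 genes, had a fast share of 0%, a slow share of 31.9% and a developmental share of 68.1%. AE17 SC replicate 4, with 39 counts, had a fast share of 77.4%, a slow share of 4.0% and a developmental share of 18.6%. AB1 IPL replicate 2, with 288 counts, had a developmental share of 8.5%. No log2 CPM of a member, or of Myh6, was flagged in any group.

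The site difference of Myh4 differed between models, with an interaction of 4.62 on the log2 scale (SE 1.46, edgeR adjusted p = 0.0238). Its log2 fold change of IPL over SC was 3.67 in AB1 and -0.93 in AE17. With the sequencing lane as a covariate the interaction was 4.53, with an adjusted p of 0.365 by edgeR. With the striated muscle score as a covariate it was 0.80 (edgeR adjusted p = 0.441), and with limma-voom it was 5.96 (adjusted p = 0.0530).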

How the results depend on the processing

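Over all genes, main counts of called genes were 3374 and 840 for the site difference in AB1 and AE17, 9138 and 9940 for the model difference in SC and IPL tumors and 3212 for the interaction. Counts that moved by over 1.5 times are given in the same order of comparisons. With the sequencing lane as a covariate 551, 116, 5268, 5008 and 117 genes passed, and within 1 lane 169 in AB1 and 14 in AE17. With the pan-striated muscle score as a covariate 1856 passed in AB1 and 2079 for the interaction. For the AE17 site difference, 550 passed with no filter, 1768 with DESeq2, 3925 with limma-voom and 1324 in 1 fit of all 32 mice. Leaving out 1 mouse gave 2877 to 3652, 316 (without AE17 IPL replicate 4) to 2066 (without AE17 SC replicate 1, moved by over 1.5 times for 12 of 16 mice, all but IPL 1 and 6 and SC 4 and 8), 8862 to 9649, 9686 to 10118 and 2722 to 3664. The cause was not tested.

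With the pan-striated muscle score as a covariate, the model difference in SC tumors turned positive for Myh2 (0.38), Myh7 (0.02) and Myh8 (0.07), and that in IPL tumors turned negative for Myh1 (-0.79), Myh2 (-0.65), Myh7 (-0.96), Myh3 (-2.0) and Myh8 (-0.35). The interaction turned negative for Myh1 (-0.62), Myh2 (-1.04), Myh7 (-0.98), Myh3 (-1.03) and Myh8 (-0.41). With the lane as a covariate Myh3 turned to -0.61 in IPL tumors, and all calls on members were lost. Leaving out 1 mouse put Myh3 in IPL tumors between -0.02 (without AE17 IPL replicate 1 or 8, and -0.01 without AB1 IPL replicate 4) and 0.48, and the calls for Myh3 in SC and Myh8 in IPL tumors were lost in 6 and 7 of 32 such fits.

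Replicate numbers paired no mice: same-numbered IPL and SC tumors had a mean correlation of residuals of -0.12 in AB1 and 0.07 in AE17. The replicate block gave 2263, 661, 8943, 9706 and 2823 genes, with adjusted p of 0.101 for Myh3 in SC, 0.0510 for Myh8 in IPL and 0.0616 for the Myh4 interaction.

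In AB1 IPL tumors the fast share moved from 92.2% to 88.1% with raw counts and 88.2% with coding lengths (an alternative chosen after seeing the data), and the developmental share from 6.06% to 9.64% and 9.52%. The relation of Myh7 to heart genes passed to p over 0.05 with a prior count of 0.5, with r 0.60 in AB1 IPL (exact p = 0.124) and r still 0.67 in AE17 IPL (exact p = 0.055), and with the list's median in AB1 IPL (r 0.27, exact p = 0.527). Leaving out 1 mouse gave r from 0.75 to 0.97 for Myh3 in AB1 SC (p over 0.05 without replicates 5 or 7), and in AE17 IPL for Myh7 from 0.79 to 0.93 with slow, 0.68 to 0.86 with heart and 0.83 to 0.94 with fast fiber genes (p over 0.05 without replicates 1 or 8, and for heart also 6).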
